A study of Mus musculus with 2 samples.

Results

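Insulin and insulin-like growth factor (IGF) signalling was followed through 10 genes chosen by name in the mRNA sequencing of mouse lung cancer cells, out of 23183 genes measured. They are the IGF-binding protein gene Igfbp3, the receptor genes Igf1r and Insr, the adaptor genes Irs1 and Irs2, the transcription factor genes Foxo1, Foxo3 and Foxo4, and the arrestin genes Txnip and Arrdc4. All 10 had a mean of at least 1 FPKM (fragments scaled to transcript length and depth, so that levels can be compared between genes), as did 11231 genes in all. KPR- cells are an immortalized line from lung cancers of KPRL/F-TAM(-) mice, which were not fed tamoxifen and carried Flp ERT2, a Tomato reporter, Runx3 flox/FSF, p53 flox/flox and K-Ras LSL-G12D/+ alleles. Mice aged 6 to 8 weeks received Ad-Cre, a Cre-carrying adenovirus, through the nose, and lungs were taken 4 weeks later. Cre switches on oncogenic K-Ras and removes p53 and the floxed Runx3 allele, while a Frt-Stop-Frt cassette keeps the other Runx3 allele off. 4-OHT, an active form of tamoxifen, turns on the Flp recombinase that removes the cassette and gives KPRrestored cells, so both groups share active K-Ras and loss of p53. The records label the KPR- library RUNX3 -/- at 0 h and the KPRrestored library RUNX3 -/+ at 16 h, and list 1 μM 4-OHT with 10% serum for both. Neither the records nor the methods say whether the line is a single clone.

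Each group was 1 library, so no difference had a replicate check and no p-value was computed. The depths, estimated from the steps of low FPKM values, were about 21900000 fragments for KPR- and 22500000 fragments for KPRrestored. The intervals given are 95% counting intervals from estimated fragments and hold no error between cultures. Runx3 itself had 0.348 FPKM in KPR- and 0.349 FPKM in KPRrestored, from about 28 and 29 fragments. Its log2 difference was 0.0074 (-0.79 to 0.81), so no rise of Runx3 mRNA was seen, within wide limits. Such a value per gene does not check the labels. Every direction is therefore that of the library labelled KPRrestored against the library labelled KPR-. 4-OHT, hours in culture and Runx3 restoration cannot be told apart in this design. The cells were measured in bulk, where fewer cells of a type and less RNA per cell cannot be told apart. Of 10 epithelial markers 6 had a mean of at least 1 FPKM, with differences of both signs (Epcam 105 and 91.6 FPKM, Krt7 1229 and 743 FPKM, Cdh1 119 and 130.2 FPKM), whereas the lung markers Sftpc, Sftpb and Scgb1a1 were listed at 0 in both libraries. Of the markers of other cell types, 1 of 8 for fibroblasts (Col1a1), 1 of 6 for endothelium (Kdr) and 1 of 7 for leukocytes (Cd68) reached a mean of 1 FPKM. Summed over each list, the markers had 6110 and 5369 FPKM for epithelium, 12.7 and 5.35 FPKM for fibroblasts, 1.20 and 2.24 FPKM for endothelium and 3.13 and 6.83 FPKM for leukocytes in KPR- and KPRrestored. Their part in the results below was not tested.

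Insulin and the IGFs act through the receptors encoded by Insr and Igf1r, tyrosine kinases that phosphorylate the IRS adaptors and through them switch on PI3K and the kinase AKT. AKT phosphorylates the FOXO factors, which then leave the nucleus, so that FOXO target genes are active when the pathway is quiet. Txnip and Arrdc4 encode α-arrestins that lower glucose uptake, and both are classic targets of MondoA and Mlx, factors that respond to glucose metabolites and bind a carbohydrate response element, a pair of E-box-like motifs. Txnip is also a known FOXO target. The genes of the set were not sorted by whether they are FOXO targets, so this label does not set Txnip apart from the others.

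The promoters of Txnip, Arrdc4 and Igfbp3 are shown because these genes had the 2 highest differences of the set and the lowest one, and the letters read by FOXO, Mlx and RUNX factors can be looked up in them. Promoter windows of 8 of the 10 genes were in the RefSeq table (GRCm38.p6), all but those of Insr and Foxo4. The starts of this table can differ from the gene positions given further below. This holds for Irs2 (250 bases at chr8:11008930-11009179), Igf1r (chr7:67952007-67952256) and Irs1 (chr1:82291440-82291689), whose windows lie apart from those positions. The window of Foxo3 (chr10:42276696-42276945) and, by a few bases at most, those of Arrdc4 and Foxo1 run into those positions. The search covered the 250 bases before and the first 50 bases of each transcript on both strands, for TGTGGT (RUNX), GTAAACA (FOXO), CACGTG (a full E-box) and the carbohydrate response element, written as CACGNG or CNCGTG, any 5 bases, and again CACGNG or CNCGTG. The last pattern can overlap CACGTG and was written with the Txnip promoter in view. The 250 bases before the start follow 5′ to 3′ on the strand of each gene, from chr3:96557707-96557956 (plus strand) for Txnip, chr7:68749239-68749488 (minus strand) for Arrdc4 and chr11:7213924-7214173 (minus strand) for Igfbp3, with the matches in capitals.
Txnip: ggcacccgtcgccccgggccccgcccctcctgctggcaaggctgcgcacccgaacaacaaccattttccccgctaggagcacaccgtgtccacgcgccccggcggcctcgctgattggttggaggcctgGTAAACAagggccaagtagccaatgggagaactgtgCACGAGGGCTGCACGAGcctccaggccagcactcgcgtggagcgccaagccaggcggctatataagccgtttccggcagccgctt
Arrdc4: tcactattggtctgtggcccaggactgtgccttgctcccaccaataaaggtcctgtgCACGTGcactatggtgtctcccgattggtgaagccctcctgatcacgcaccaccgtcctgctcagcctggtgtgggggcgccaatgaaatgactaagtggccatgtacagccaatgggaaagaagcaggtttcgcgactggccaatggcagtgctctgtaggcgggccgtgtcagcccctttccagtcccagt
Igfbp3: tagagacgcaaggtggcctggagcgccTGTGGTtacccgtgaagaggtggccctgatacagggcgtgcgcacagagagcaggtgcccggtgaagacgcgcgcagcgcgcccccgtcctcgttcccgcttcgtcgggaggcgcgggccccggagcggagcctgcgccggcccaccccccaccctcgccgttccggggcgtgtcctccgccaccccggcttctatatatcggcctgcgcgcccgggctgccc

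In the Txnip promoter the first capitals are GTAAACA, whose first base lies 121 bases before the start, and the second are a match to the carbohydrate response element that begins 85 bases before it. GTAAACA was found in 3.65% of the 32851 promoter windows of the table, and among the 8 windows of the set in that of Txnip. The carbohydrate response element was found in 0.0822% of all windows (27 windows), and in the set again in that of Txnip. Arrdc4 held CACGTG 193 bases before the start, as did Irs1 at 115 bases and Irs2 at 44 bases, against 7.15% of all windows. The capitals of Igfbp3 are TGTGGT, 223 bases before the start, letters that 16.8% of all windows held. The windows of Foxo1, Foxo3 and Igf1r held none of the 4 patterns. These matches describe the letters of the windows, and binding was not measured in these data.

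Among the 10 genes, Txnip, Arrdc4, Foxo3 and Foxo1 were higher in KPRrestored by 0.5 or more on the log2 scale, and Igfbp3 and Igf1r were lower by as much. Differences were taken as log2(FPKM + 0.005) in KPRrestored minus KPR-. Of the 11231 genes with a mean of at least 1 FPKM, 12.1% were higher by 0.5 or more, against 4 of the 10 genes, and 9.29% were lower by as much, against 2 of the 10. The counting interval lay above 0 for 6 of the 10 genes, against 34.0% of all, and below 0 for 2 of the 10, against 32.7%. At this depth a counting interval without 0 is therefore common. The median difference of the 10 genes was 0.16, beside 0.0086 for the 11231 genes. Foxo1 and Foxo3 lay just past the threshold. With a pseudocount of 1 in place of 0.005, 2 of the 10 genes were higher by 0.5 or more. Over the 11231 genes the count of higher genes also shrank, from 1358 to 1043. After scaling to the same upper quartile Foxo1 had 0.49.

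**Figure D1:**
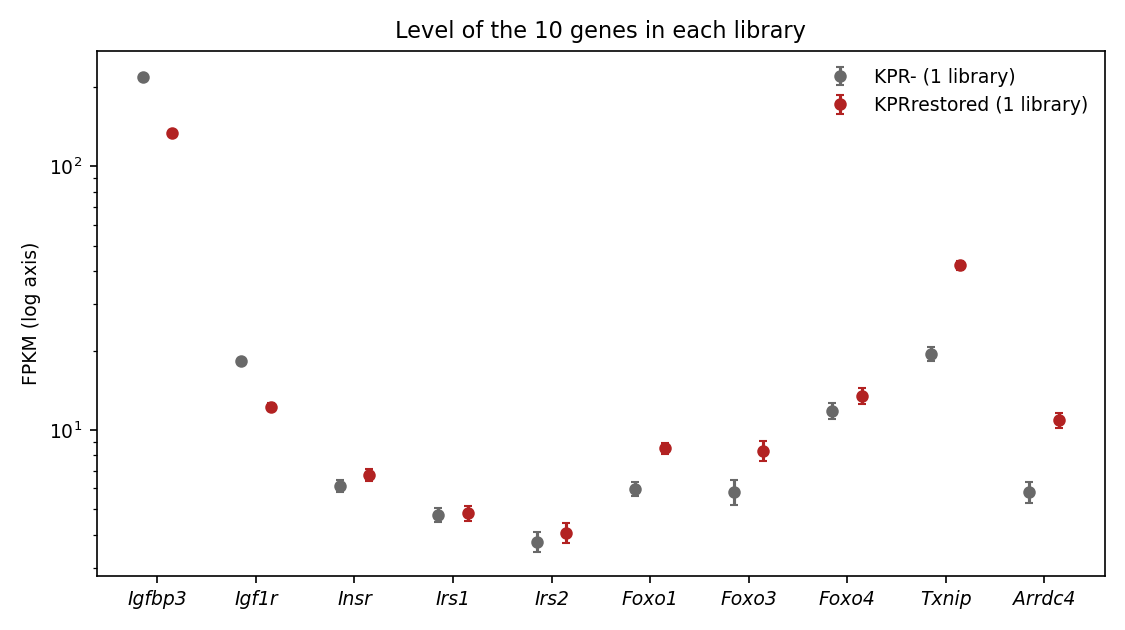
FPKM of the 10 genes (log axis) in the KPR- library (grey) and the KPRrestored library (red), with bars for the 95% counting interval of each level. Igfbp3 is the most abundant in both libraries, Txnip and Arrdc4 are higher in KPRrestored (42.2 against 19.4 FPKM and 10.9 against 5.80 FPKM), and the points of Irs1 lie at the same height (4.75 and 4.81 FPKM).

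Txnip, whose protein binds thioredoxin and holds back glucose uptake, had the largest difference of the set. It lies on chromosome 3 from 96557957 to 96561883 (plus strand, GRCm38). It had 19.4 FPKM in KPR- and 42.2 FPKM in KPRrestored, from about 1108 and 2479 fragments. KPRrestored was 2.18-fold higher, or 1.12 on the log2 scale (counting interval 1.02 to 1.23), which ranked 255th among the 11231 genes from the highest. Exons of the antisense gene Gm15441 overlap Txnip on the other strand, and Gm15441 had 0.156 and 0.122 FPKM.

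Arrdc4, the closest relative of Txnip in the set and likewise an adaptor of the α-arrestin family, spans chromosome 7 from 68736995 to 68749241 on the minus strand. It had 5.80 FPKM in KPR- and 10.9 FPKM in KPRrestored, from about 469 and 904 fragments. The log2 difference was 0.91 (0.75 to 1.07), which ranked 421st from the highest. The ratio of Txnip to Arrdc4 was 3.34 in KPR- and 3.87 in KPRrestored. The log2 change of this ratio was 0.21, with a counting interval of 0.023 to 0.40, just past counting error at the transcript lengths used. With its shortest coding transcript Arrdc4 would have about 116 and 224 fragments. The interval of the ratio would then be wider and was not computed, so this change is not secured against counting error.

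Of 6 further α- and β-arrestin genes, 5 had a mean of at least 1 FPKM, 0 were higher by 0.5 or more, and 1 was lower, too few genes to set against the 12.1% and 9.29% of all genes. Arrdc3, an α-arrestin that promotes receptor breakdown, had 9.26 FPKM in KPR- and 9.34 FPKM in KPRrestored. Arrdc1 had a log2 difference of 0.27 and Arrb2 one of 0.41. Arrb1, which encodes β-arrestin-1, fell from 5.79 to 3.42 FPKM (-0.76).

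Of the factors that act on Txnip and Arrdc4, the genes Mlxip, Mlx and Mlxipl differed by less than 0.5. Mlxip, which encodes MondoA, had 7.39 FPKM in KPR- and 7.08 FPKM in KPRrestored, and its partner Mlx had 15.9 and 18.2 FPKM. Mlxipl, which encodes ChREBP, had 0.159 and 0.129 FPKM, from about 12 and 10 fragments. Of 13 genes on the list of these factors and their targets other than Txnip and Arrdc4, 10 had a mean of at least 1 FPKM, 0 rose past the threshold and 3 fell, beside 12.1% and 9.29% of all genes. Gpd1, a glycerol-3-phosphate dehydrogenase, fell from 5.89 to 3.02 FPKM, Acaca, the acetyl-CoA carboxylase of fatty acid synthesis, fell from 16.7 to 9.59 FPKM, and Fasn, the fatty acid synthase, fell from 78.5 to 54.7 FPKM. Klf10 had a difference of 0.46 and Tkfc one of 0.20. Of the targets under a mean of 1 FPKM, the hormone gene Fgf21 was listed at 0 in KPR- and had about 8 fragments in KPRrestored, and the glucose transporter gene Slc2a2 had about 98 and 18 fragments.

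Thioredoxin and the main glucose transporter, on which the Txnip protein acts, were within the threshold. Txn1, the thioredoxin that Txnip binds, had 298 FPKM in KPR- and 265 FPKM in KPRrestored, a log2 difference of -0.17. Slc2a1, the glucose transporter that Txnip removes from the cell surface, had 120 and 146 FPKM, a log2 difference of 0.28. Of 13 genes of this list with a mean of at least 1 FPKM, 3 rose past the threshold and 0 fell, beside 12.1% and 9.29% of all genes. Ddit4, a brake on mTORC1, rose from 48.7 to 119 FPKM (log2 difference 1.29), and the glucose transporter Slc2a8 rose from 4.90 to 7.28 FPKM (0.57). Txnrd3, a thioredoxin reductase, rose from 5.38 to 7.66 FPKM (0.51), while Txnrd2 had a difference of -0.34 and Wwp1 one of -0.26.

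Of the 3 FOXO genes, Foxo1 and Foxo3 had nearly the same levels and differences, and Foxo4 stood apart. Foxo1, on chromosome 3 from 52268336 to 52353221 (plus strand), rose from 5.97 to 8.51 FPKM, from about 1104 and 1618 fragments. The log2 difference was 0.51 (0.40 to 0.62). Foxo3, on chromosome 10 from 42181841 to 42276755 (minus strand), rose from 5.78 to 8.33 FPKM, from about 339 and 501 fragments. The log2 difference was 0.53 (0.32 to 0.73). The ratio of Foxo3 to Foxo1 was 0.969 in KPR- and 0.979 in KPRrestored.

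Foxo4, on chromosome X from 101254528 to 101260873 (plus strand), was the most abundant FOXO gene in both libraries, with 11.8 FPKM in KPR- and 13.4 FPKM in KPRrestored. Its log2 difference of 0.19 (0.049 to 0.33) was below the threshold. The ratio of Foxo4 to Foxo1 was 1.97 in KPR- and 1.58 in KPRrestored, which changed by -0.32 on the log2 scale (-0.50 to -0.14). The FPKM of the 3 genes summed to 23.5 in KPR- and 30.3 in KPRrestored, and the share of Foxo4 in this sum was 50.1% and 44.4%. Foxo6, the remaining family member, had 1.01 and 0.977 FPKM, from about 53 fragments in each library.

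**Figure D2:**
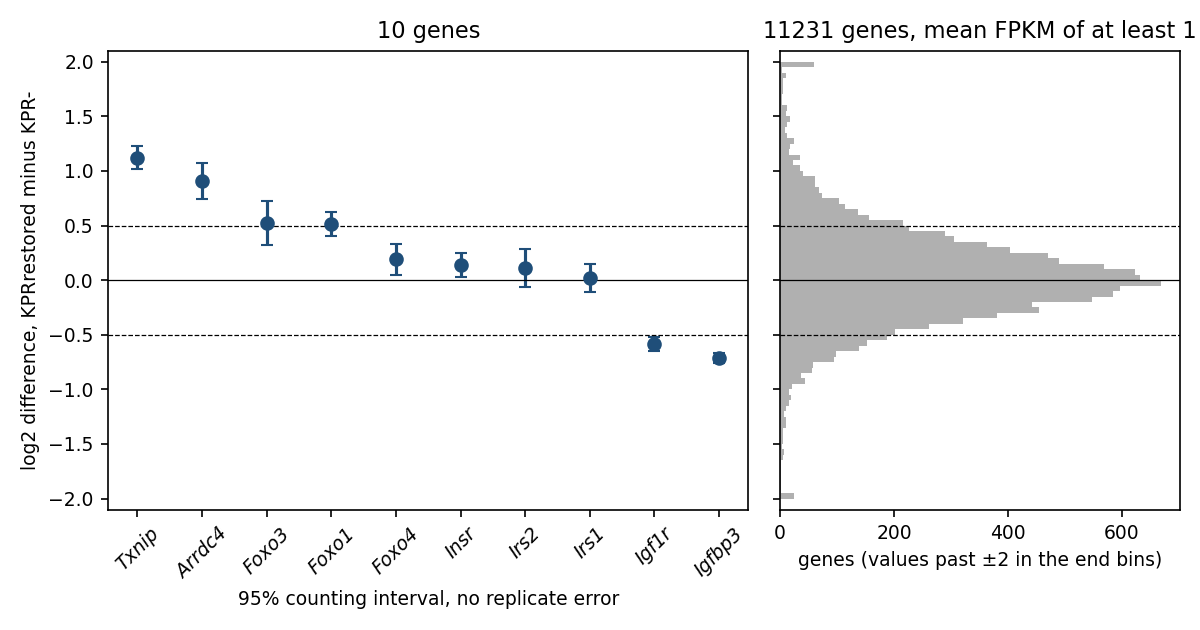
Log2 difference (KPRrestored minus KPR-) of the 10 genes with their 95% counting intervals (left) and of the 11231 genes with a mean of at least 1 FPKM as a histogram on the same axis (right, with values past -2 and 2 in the end bins). Dashed lines mark -0.5 and 0.5, past which lie 4 genes of the set on the higher side and 2 on the lower side.

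On the list of FOXO partners and regulators, 17 of 18 genes had a mean of at least 1 FPKM, all but Foxo6. Of the 17 genes, 0 were higher by 0.5 or more and 1 was lower, beside 12.1% and 9.29% of all genes. The lower one was Skp2, a ubiquitin ligase subunit that marks Foxo1 for breakdown, which fell from 20.3 to 13.2 FPKM (log2 difference -0.62). Xpo1, the exporter that carries FOXO factors out of the nucleus, had 87.8 and 63.5 FPKM (-0.47). The largest positive differences were 0.44 for Mdm2, a ubiquitin ligase gene, and 0.41 for Ywhag, a 14-3-3 gene. The median of the 17 genes was -0.16.

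Known FOXO target genes were the list on which most genes were higher. This list, like the others, was chosen with earlier results of these data known, so its counts describe it and test nothing. Of 32 targets, none of them a member of the set, 25 had a mean of at least 1 FPKM. In KPRrestored 16 of the 25 rose by 0.5 or more, 1 fell and 8 were within the threshold, beside the 12.1% and 9.29% of all genes, and the median difference was 0.71. Of the 25, the largest rises were those of Trp53inp1, a stress-induced regulator of autophagy and cell death, from 1.78 to 8.85 FPKM (2.32), and Gadd45a, a growth arrest gene, from 6.52 to 24.4 FPKM (1.90). The gene that fell was Ccnd1, which encodes cyclin D1, from 331 to 203 FPKM (-0.71). The list was not split into targets that FOXO factors raise and targets that they repress. Sesn1, a sestrin, had the next lowest difference of the 25, -0.19.

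Some of these targets also answer to other factors. A second count left out 7 genes that are known targets of p53 or ATF4 as well (Cdkn1a, Sesn1, Bbc3, Trp53inp1, Gadd45a, Eif4ebp1 and Map1lc3b). In it 10 of 18 genes rose past the threshold and 1 fell, beside 12.1% and 9.29% of all genes, and the median was 0.57. Leaving the 7 genes out was not planned beforehand, and the 18 genes left may still include targets of p53 or ATF4. By genotype p53 is lost in both groups, and Atf4 itself had 145 FPKM in KPR- and 446 FPKM in KPRrestored. Which factor acted on any of these genes was not tested.

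Gabarapl1, an Atg8 family gene, rose from 28.6 to 46.9 FPKM (0.71), and Map1lc3b, another, from 47.2 to 80.2 FPKM (0.76). The mitophagy genes Bnip3 and Pink1 rose from 48.5 to 75.8 FPKM (0.65) and from 5.70 to 8.71 FPKM (0.61). Fbxo32, the ubiquitin ligase gene of muscle atrophy, rose from 3.35 to 5.56 FPKM (0.73), while its companion Trim63 was listed at 0 in both libraries.

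Cdkn1a, the CDK inhibitor p21, rose from 14.2 to 39.6 FPKM (1.48), and Ccng2, a cyclin of resting cells, rose from 41.2 to 73.7 FPKM (0.84). Cdkn1b, the CDK inhibitor p27 and the best known FOXO target of this group, had 25.4 and 32.3 FPKM (0.34), and the pocket protein gene Rbl2 had 4.91 and 4.36 FPKM (-0.17). Ccnd2 had 34.2 and 37.3 FPKM (0.12).

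Among the targets with roles in death and oxidative stress, Bbc3, which encodes Puma, rose from 2.92 to 7.39 FPKM (1.34). Bcl2l11, which encodes Bim, had 12.5 and 14.6 FPKM (0.22). The antioxidant enzyme genes Cat and Sod2 had differences of 0.29 and -0.15, and Sepp1, the selenium carrier of plasma, rose from 77.9 to 128 FPKM (0.72). The transcriptional regulators Bcl6, Klf6 and Cited2 rose by 1.40, 0.82 and 0.78 on the log2 scale. The liver genes of glucose output on the list, G6pc and Pck1, were listed at 0 in both libraries. Of the other targets under a mean of 1 FPKM, Pdk4 had about 68 fragments in KPR- and 29 in KPRrestored, Ppargc1a about 52 and 97, Klf15 about 1 and 10, and Tnfsf10 about 1 and 2.

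**Figure D3:**
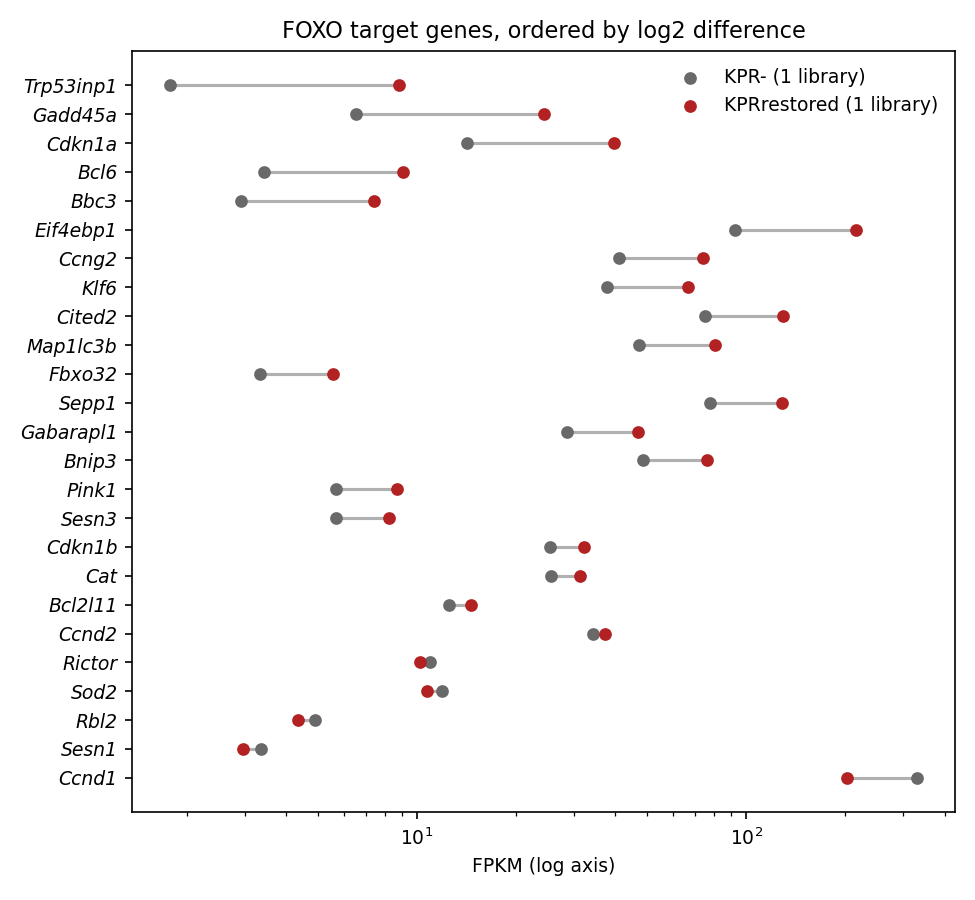
FPKM (log axis) of the 25 FOXO target genes with a mean of at least 1 FPKM in the KPR- library (grey) and the KPRrestored library (red), ordered from the highest log2 difference at the top. The red point lies to the right of the grey one from Trp53inp1 (1.78 to 8.85 FPKM) down to Ccnd2, and Ccnd1 at the bottom has the widest gap the other way (331 to 203 FPKM).

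At the receptors, Igf1r was lower and Insr was not. Igf1r, on chromosome 7 from 67952827 to 68233668 (plus strand), fell from 18.3 to 12.2 FPKM, from about 4475 and 3065 fragments. That is -0.58 on the log2 scale (-0.65 to -0.52). Insr, on chromosome 8 from 3122061 to 3279617 (minus strand), had 6.12 FPKM in KPR- and 6.73 FPKM in KPRrestored, a difference of 0.14 (0.025 to 0.25). If the shortest coding transcripts were the ones present, fewer fragments would stand behind the values, and the intervals of Insr, Foxo3 and Foxo4 would include 0. The ratio of Igf1r to Insr was 2.98 in KPR- and 1.81 in KPRrestored, a change of -0.72 on the log2 scale (-0.85 to -0.59). Igf1r remained the more abundant receptor gene in both libraries. Igf2r, the clearing receptor of IGF-II, had 18.7 and 16.4 FPKM (-0.19).

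The adaptors that the receptors phosphorylate were within the threshold. Irs1, on chromosome 1 from 82233101 to 82291416 (minus strand), had 4.75 FPKM in KPR- and 4.81 FPKM in KPRrestored, from about 929 and 967 fragments. The difference was 0.019 (-0.11 to 0.15), and it was -0.0035 after scaling to the same upper quartile. Irs2, a known FOXO target on chromosome 8 from 10984681 to 11008458 (minus strand), had 3.76 and 4.06 FPKM, from about 503 and 558 fragments, a difference of 0.11 (-0.066 to 0.29). These intervals bound the difference between the libraries as far as counting goes. The ratio of Irs1 to Irs2 was 1.26 and 1.19.

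Of 20 adaptor and brake genes with a mean of at least 1 FPKM, out of 22, 4 rose and 2 fell past the threshold, beside 12.1% and 9.29% of all genes, so that the share that fell was near that of all genes. The median was -0.014. Socs2, a feedback inhibitor of growth hormone signalling, rose from 3.75 to 12.9 FPKM (1.78), and Sh2b2, an adaptor of the insulin receptor, rose from 1.47 to 4.42 FPKM (1.59). Grb10, an adaptor that holds back both receptors, rose from 1.98 to 4.33 FPKM (1.13), and Gab2, a docking protein gene, from 2.59 to 5.33 FPKM (1.04). Enpp1, an ectoenzyme that inhibits the insulin receptor, fell from 15.0 to 7.95 FPKM (-0.92), and Cav1, the caveolin of membrane pits that hold the receptors, fell from 184 to 111 FPKM (-0.72).

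Igfbp3, which encodes a secreted protein that binds IGFs, was the most abundant gene of the set in both libraries and the one with the lowest difference. The gene spans chromosome 11 from 7206086 to 7213923 on the minus strand. It fell from 219 to 134 FPKM, from about 10576 and 6643 fragments. The log2 difference was -0.71 (-0.75 to -0.67), which ranked 446th among the 11231 genes from the lowest. The ratio of Igfbp3 to Igf1r changed by -0.12 on the log2 scale (-0.20 to -0.045), so Igfbp3 was lower by slightly more than Igf1r.

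The other abundant binding protein genes had differences of like size. Igfbp4 fell from 1266 to 791 FPKM (-0.68), and Igfbp7 fell from 392 to 244 FPKM (-0.68). Igfbp2, Igfbp5 and Igfbp6 had under 1 FPKM in both libraries, from about 10 and 1, 22 and 7, and 6 and 14 fragments, and Igfbp1 was listed at 0 in both. The ligand genes had few fragments. Igf1 had about 23 fragments in KPR- and was listed at 0 in KPRrestored, Igf2 had about 7 and 1 fragments, and Ins1 and Ins2 were listed at 0 in both libraries. The relaxin family gene Insl6 rose from 1.41 to 3.38 FPKM, from about 15 and 38 fragments.

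Below the adaptors, of 25 PI3K and AKT genes, 22 had a mean of at least 1 FPKM, 0 rose and 2 fell past the threshold, and 20 were within it, with a median of -0.028. Over all genes 12.1% rose and 9.29% fell by as much, so the share that fell was near that of all genes. Inpp4b, a phosphatase that removes a PI3K product, fell from 4.02 to 1.11 FPKM (-1.85), and Phlpp1, a phosphatase of AKT, fell from 10.9 to 7.04 FPKM (-0.64). Akt1 had 123 and 100.3 FPKM (-0.30), and Pik3ca had 9.97 and 9.46 FPKM (-0.076). Rheb, the GTPase that activates mTORC1, had a difference of 0.46, and Akt1s1, which encodes an mTORC1 inhibitor, and Tsc1, which encodes a subunit of the complex that holds Rheb back, had 0.30 each. Of the genes under a mean of 1 FPKM, Pik3ip1, an inhibitor of PI3K, had about 27 fragments in KPR- and 51 in KPRrestored, Pik3cd about 50 and 66, and Inpp5d 0 and about 3.

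**Figure D4:**
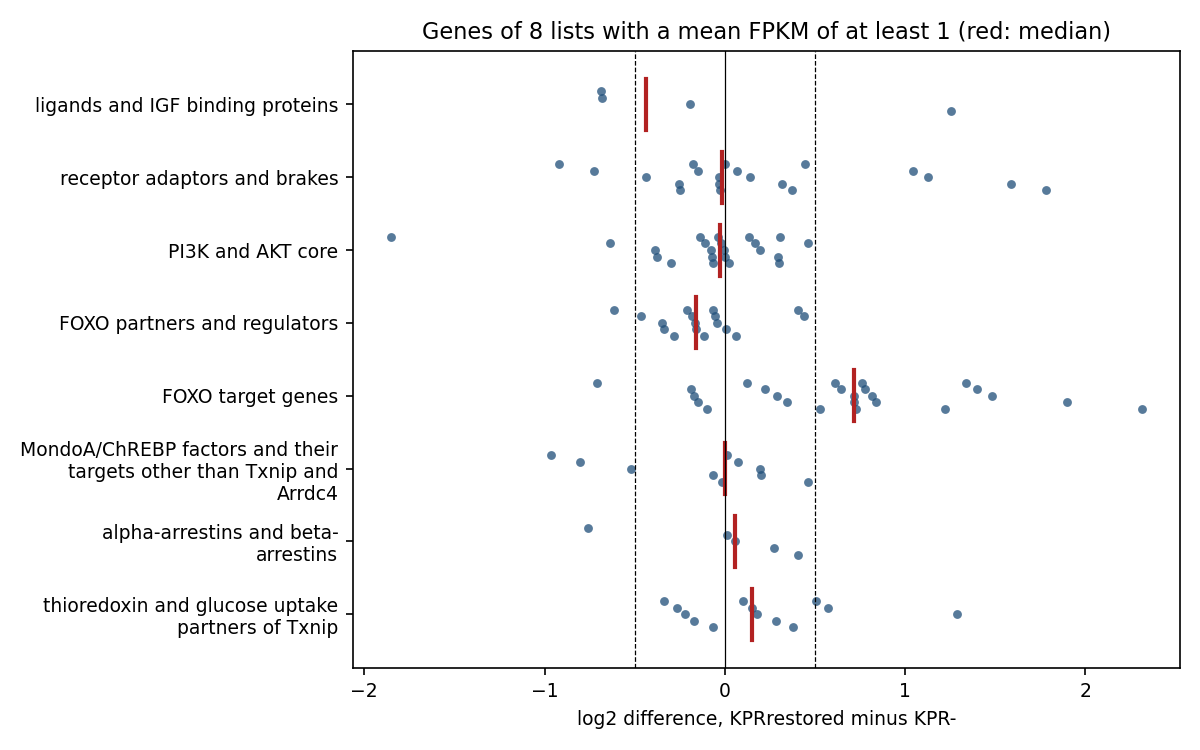
Log2 difference (KPRrestored minus KPR-) of each gene with a mean of at least 1 FPKM in 8 lists, 1 point per gene, with red bars at the list medians and dashed lines at -0.5 and 0.5. The points of the FOXO target genes lie mostly to the right of 0.5 (16 of 25, median 0.71), and those of the PI3K and AKT genes mostly between the dashed lines (20 of 22). The lists were chosen with earlier results of these data known.

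Ordered by level in KPR-, Igfbp3 was followed by Txnip, Igf1r, Foxo4, Insr, Foxo1, Arrdc4, Foxo3, Irs1 and Irs2. The counting intervals of the levels of Txnip (18.2 to 20.5 FPKM) and Igf1r (17.7 to 18.8 FPKM) overlapped, as did those of Insr, Foxo1, Arrdc4 and Foxo3, which lay between 5.18 and 6.47 FPKM. In KPRrestored the order was Igfbp3, Txnip, Foxo4, Igf1r, Arrdc4, Foxo1, Foxo3, Insr, Irs1 and Irs2. There Foxo4 (12.6 to 14.4 FPKM) and Igf1r (11.7 to 12.6 FPKM) just touched, Foxo1 and Foxo3 overlapped, and Txnip, with 40.5 to 43.9 FPKM, was separate from both neighbours. Igf1r thus went from the third to the fourth place and Insr from the fifth to the eighth, while Irs1 and Irs2 had the lowest levels of the set in both libraries.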

How the data were processed

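Poly(A) RNA of KPR- and KPRrestored cells was made into 1 directional library each and sequenced from both ends. The authors trimmed the reads, mapped them to mm10 using TopHat and estimated FPKM values per gene using Cufflinks, and the deposited FPKM values were used as they stand. Tool versions and the annotation are not given in the sources used here. For a gene with a single transcript, a low FPKM value should be near a whole multiple of what 1 fragment is worth. With GENCODE M21 (GRCm38) lengths of 4242 genes with a single transcript of at least 400 bases, a fit of these steps gave the depths and a mean fragment length of 216 bases. Of 584 and 598 low values, 78.9% and 80.8% lay within 0.1 of a whole number, an agreement that the fit itself sought. Fragments per gene were estimated for 22616 genes with the longest transcript that has a RefSeq counterpart, and intervals are exact Clopper-Pearson limits for differences and exact Poisson limits for levels. They cover counting error only. Intervals of ratios between genes use a normal approximation of the log ratio. Of the deposited symbols, 22156 matched GENCODE directly and 653 through an older or newer symbol. Exons of genes on the other strand overlap those of Irs1, Irs2, Foxo1 and Txnip, and whether counting used strand is not given in the sources used here. Steps were tested on simulated libraries drawn under the assumptions of the fit itself. Those simulations therefore cannot test the assumptions, and they hold no error between cultures.

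The genes and lists were chosen with earlier results of these data known. Named were all 10 genes and, in each of the 8 lists, the 2 genes that rose most and the 2 that fell most on the log2(FPKM + 1) scale among genes with a mean of at least 1 FPKM, and every other gene named was chosen after its values were seen. Alternatives were other pseudocounts, scalings, filters and a threshold of 1. Protein features were not analysed here, and 1 gene of the PI3K and AKT list is not reported here. The tools were matplotlib 3.10.9, scipy 1.17.1, pandas 2.3.3, numpy 2.4.6 and Python 3.11.15.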

Additional observations from a re-analysis of the deposited data

How the results depend on the processing

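The log2 differences of all 10 genes stayed within their counting intervals under pseudocounts of 0.1 and 1, scaling to the same FPKM total, scaling to the same upper quartile and centring on the median gene. The count of members higher by 0.5 or more was 2 with a pseudocount of 1 and 1 with a threshold of 1, and the count of members lower was 0 with that threshold. Foxo1 and Foxo3 had differences of 0.45 and 0.46 with a pseudocount of 1, which shrinks differences of low genes, and Foxo1 had 0.49 after scaling to the same upper quartile. Over all genes, 1043 were higher and 762 lower with a pseudocount of 1, and 325 were higher and 155 lower with a threshold of 1. The counts were 3193 and 3002 without a filter other than above 0 in 1 library, where more genes enter. They were 872 and 641 with a mean of at least 5 FPKM, where fewer enter. The median of the ligand and binding protein list was -1.11 without that filter and -0.68 with the higher one, that of the arrestin list was 0.27 with the higher one, and that of the PI3K and AKT list was 0.00028 with it. Taking for each gene its shortest coding transcript (350 bases or longer), which leaves fewer fragments, the counting intervals of Insr (-0.38 to 0.66), Foxo3 (-0.099 to 1.15) and Foxo4 (-0.041 to 0.42) included 0. No paired analysis was possible because each group was 1 library.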
